A study of Mus musculus with 32 samples.

Results

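Voltage-gated and related ion channel genes were examined across 4 mouse tissues, namely skeletal muscle, heart, liver and brown adipose tissue (BAT). The set holds every protein-coding gene whose symbol starts with Kcn, Hcn or Cacn, or with Scn and a digit, which gives 138 genes of 51510 genes measured (21644 of them protein-coding). Levels are TPM, a length-corrected share of all transcripts in a library that sums to the same total in each, summed over the transcripts of a gene. Of the 138 genes, 43 reached a mean of 1 TPM over the groups and are described in full, 20 more reached 1 TPM in some group only, and 75 stayed under 1 TPM in every group. The set follows from symbols alone, not from levels. The 1 TPM mean did use levels: just above it were Kcnd2 (1.26 TPM) and Kcnf1 (1.01), among others, and the 3 just below were Kcnq5 (0.987), Kcnd3 (0.975) and Kcnv2 (0.974).

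The study compared male C57BL/6J mice labelled WT with male C57BL/6J mice labelled Mut, a knockout line for SMIM30, which encodes a small membrane protein. Each of the 8 groups, a tissue of 1 genotype, has 4 libraries from individual mice, and p-values measure the spread between these libraries. RNA came from frozen bulk tissue, in which fewer cells of a type and less RNA per cell cannot be told apart. The sources used here do not give the design of the allele, the age of the animals or which libraries share a mouse.

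Ion channels set how a cell's membrane voltage moves. In muscle and heart, sodium channels (alpha subunits such as Scn4a, with Scn beta partners) carry the fast upstroke, L-type calcium channels (a Cacna1 pore with Cacnb, Cacna2d and, in skeletal muscle, Cacng1 subunits) couple voltage to contraction, and potassium channels bring the voltage back. Skeletal muscle uses Cacna1s mainly as the voltage sensor of the sarcoplasmic reticulum release channel, while heart muscle uses Cacna1c to let calcium in. Brown fat and liver do not fire muscle-like action potentials, and their potassium channels help set the resting voltage.

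A few facts of the whole series touch the values below. The transcript of the targeted gene, annotated as 2610001J05Rik, was found in every Mut library, at 17.8 to 27.4 TPM in heart against 32.7 to 37.6 in WT and at 24.3 to 27.3 in muscle against 32.9 to 35.7, while in BAT (27.3 to 33.0 against 23.5 to 32.3) and liver (17.3 to 25.6 against 18.6 to 26.4) the ranges overlapped. It was not near 0 in any Mut library. Its level set the WT and Mut libraries apart in heart and muscle but not in BAT or liver. It is therefore not a full check of the genotype labels, and WT and Mut are used below as labels. Each tissue carried its defining transcripts at high level (Acta1 in muscle, Myh6 in heart, Alb in liver and Ucp1 in BAT). The same transcripts were also present elsewhere: for 11 such marker genes, the mean level outside the own tissue was 0.835% to 2.04% of the own-tissue WT level in each of 33 gene and tissue pairs. Ckm (8.64% in heart), Cidea (2.95% in heart) and Elovl3 (216% in liver) lay above that range and were set apart after their values were seen. Where this low common level comes from was not tested.

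Skeletal muscle held the most channel transcripts and liver the fewest. The 138 genes summed to 1545 ± 80.4 TPM (SD, n = 4, as for each mean below) in WT muscle, 619 ± 67.6 in WT heart, 204 ± 15.0 in WT BAT and 107 ± 9.62 in WT liver. The ions differed by tissue: potassium channel genes were the largest sum in heart (413 ± 53.5 TPM), BAT (137 ± 15.7) and liver (70.4 ± 9.63), whereas in muscle calcium (726 ± 40.1) and sodium (541 ± 44.5) channel genes each exceeded potassium (277 ± 9.03). Heart nonetheless had the most genes at 1 TPM or more in WT, with 42 against 34 in muscle, 25 in BAT and 19 in liver. Some of those counted outside muscle stood within the low common range of the marker genes given above. Examples in WT liver were Cacng1, at 1.52% of its WT muscle level, and Cacna1s, at 1.30%. Passing 1 TPM there does not show that a gene is in use. The 4 Hcn genes, which carry the hyperpolarisation-activated current, made up the smallest sum in every tissue and were highest in liver (9.31 ± 2.89 TPM).

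Of the 43 described genes, 20 were highest in WT muscle, 14 in heart, 5 in BAT and 4 in liver. For 36 of them all 4 libraries of the top tissue lay above all 4 of the next tissue, and 28 had a mean more than 5-fold above the second tissue. The top tissue was the same in the libraries labelled Mut for 41 of 43, the exceptions being Kcnk3 (BAT and heart) and Kcnj8 (heart and BAT), whose leading tissues overlapped in WT. Kcnk3, Kcnj8, Kcnj11, Kcna5 and Scn7a were among the genes whose top tissue overlapped the next one in WT.

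**Figure D1:**
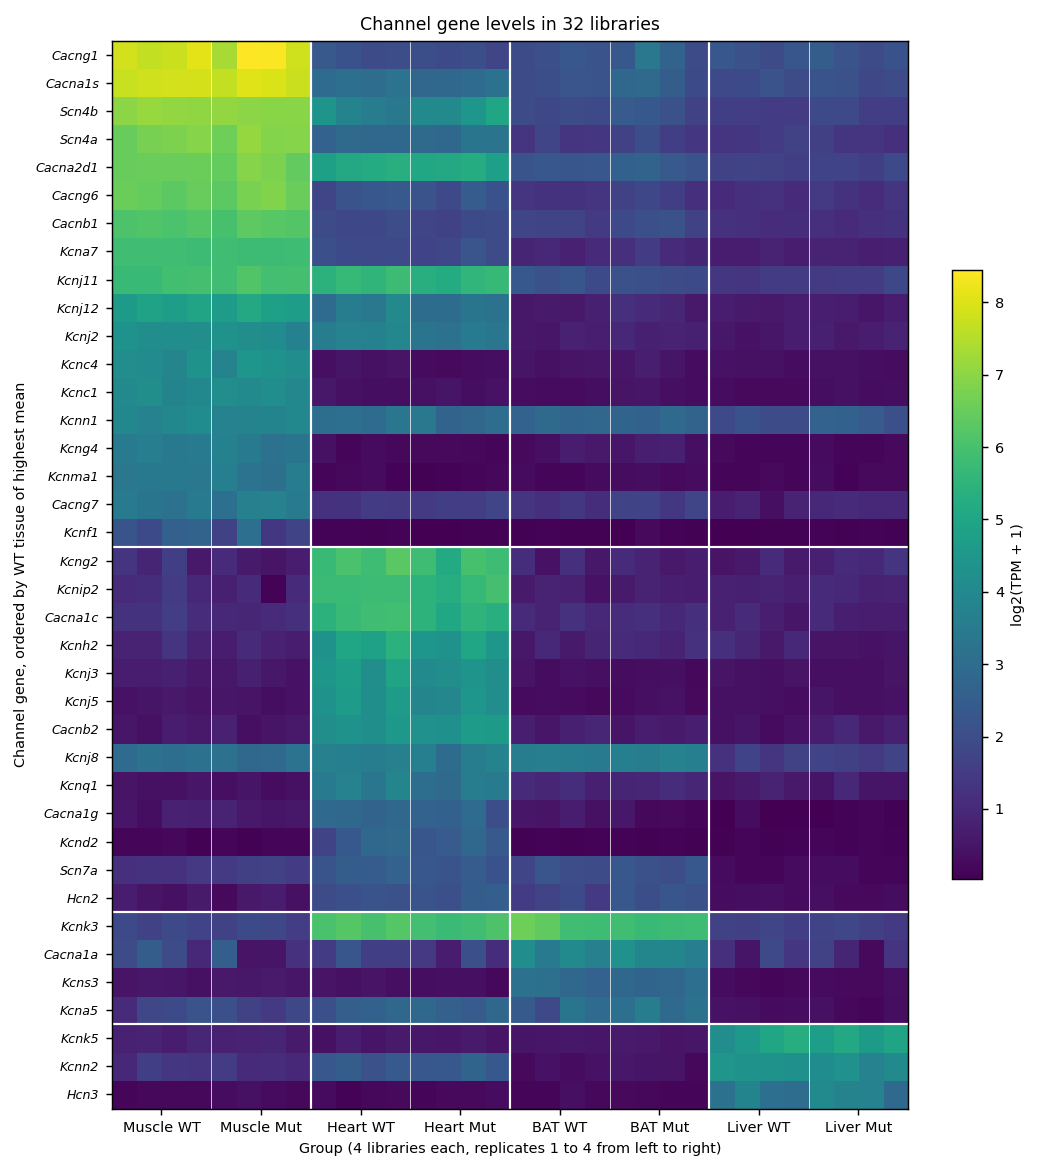
Heat map of log2(TPM + 1) for 38 described channel genes (rows, grouped by the WT tissue of highest mean and ordered by that mean) in the 32 libraries (columns, 4 per group). The muscle block holds 18 genes, the heart block 13, the BAT block 4 and the liver block 3, and WT and Mut libraries of a tissue show the same blocks.

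The skeletal muscle set was led by the parts of the muscle sodium channel and of the skeletal L-type channel. Scn4a, the pore of the muscle sodium channel, was at 88.9, 104, 110 and 120 TPM in the 4 WT muscle libraries, far above the 5.41 to 6.58 TPM of the WT heart libraries. Scn4b, a sodium channel beta subunit, was at 124 to 141 TPM in WT muscle and 9.45 to 19.9 TPM in WT heart.

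The L-type calcium channel was present in muscle with each of its subunits. Cacna1s, the pore and voltage sensor, was at 211, 228, 232 and 241 TPM in WT muscle. Cacng1, the gamma subunit of the skeletal channel, was at 234, 203, 216 and 272 TPM, so that Cacng1 stood at 1.02 ± 0.122 times Cacna1s. Cacnb1, the beta subunit needed to bring the pore to the membrane, was lower, at 69.3 ± 3.11 TPM, with 3.29 ± 0.151 TPM of Cacna1s per TPM of Cacnb1. Cacna2d1, the alpha2delta subunit, was at 91.6 ± 1.66 TPM and, unlike the other parts, also at 33.7 ± 4.72 in heart. Cacng6, a further gamma subunit, was at 87.7 ± 5.85 TPM in muscle. These ratios compare length-corrected levels of transcripts, not protein.

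The start of Cacna1s is shown because it is the pore of the skeletal channel and its group means in heart and muscle differed 30.2-fold. The 250 bases before its start (RefSeq, GRCm38.p6, chr1:136052561-136052810, plus strand) hold a CAGCTG, an E-box form bound by myogenic factors, whose first base is at -123 from the start and which is in capitals.
Cacna1s: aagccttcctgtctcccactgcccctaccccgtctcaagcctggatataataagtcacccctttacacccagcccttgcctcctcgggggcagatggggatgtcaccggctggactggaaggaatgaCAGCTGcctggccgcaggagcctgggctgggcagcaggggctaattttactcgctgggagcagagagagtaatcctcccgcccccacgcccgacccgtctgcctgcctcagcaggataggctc
The start of Kcnj3, a heart gene described below, is shown beside it, since it holds the same 6 letters in capitals at -65 (chr2:55435720-55435969, plus strand).
Kcnj3: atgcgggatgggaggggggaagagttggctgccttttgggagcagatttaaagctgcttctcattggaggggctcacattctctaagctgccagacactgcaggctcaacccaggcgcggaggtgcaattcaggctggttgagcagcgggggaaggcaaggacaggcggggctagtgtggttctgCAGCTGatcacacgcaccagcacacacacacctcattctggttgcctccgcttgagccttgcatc
CAGCTG reads the same on both strands. It was in the 250 bases before 9 of 35 starts (25.7%) of the 29 described genes found in the RefSeq promoter table, against 13.0% of 32851 starts of all genes, and the 7 genes were Cacna1s, Cacnb2, Kcng4, Kcnj2, Kcnj3, Kcnn1 and Scn7a. Among the genes named for being higher in muscle than in heart it was before 1 of 9 starts, and among those higher in heart before 3 of 9. A loose pattern for the core of MEF2 factors, CTA and TAG with any 4 bases between them, was searched on both strands. It was before 0 of the 35 starts, against 3.20% of all starts, and is not an exact MEF2 site. These are matches of letters in a short window only.

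Potassium channels of muscle fell into repolarising and inwardly rectifying kinds. Kcna7, a Shaker-type channel of muscle, was at 57.3, 56.9, 57.8 and 54.3 TPM in WT muscle against 2.69 to 3.19 in heart. The fast-spiking Shaw-type genes Kcnc4 (16.5 ± 2.53) and Kcnc1 (15.1 ± 1.75) were present at like level in muscle and at 0.266 to 0.482 TPM in every WT heart library. Kcnma1, the large-conductance calcium-activated channel, was at 9.35 to 9.91 TPM in WT muscle and at 0.074 to 0.220 TPM in WT heart. Kcnn1, a small-conductance calcium-activated channel, was spread more widely, at 14.5 ± 1.55 TPM in muscle, 7.64 ± 0.936 in heart, 5.97 ± 0.540 in BAT and 2.97 ± 0.337 in liver. Kcng4 (10.5 ± 0.720) and Kcnf1 (4.28 ± 1.28), modifier subunits that do not form channels alone, were also highest in muscle, as was the gamma family member Cacng7 (9.33 ± 0.925).

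Some inward rectifiers were shared between muscle and heart, unlike Kcnj3 and Kcnj5, which are described with the heart genes. Kcnj2 and Kcnj12 pass the current that holds the resting voltage. In WT muscle Kcnj12 (27.0 ± 2.99 TPM) exceeded Kcnj2 (17.5 ± 0.868), with a Kcnj2 to Kcnj12 ratio of 0.658, and in WT heart the means were 10.5 and 12.5 TPM with a ratio of 1.25 ± 0.280. Kcnj11, a pore of the ATP-sensitive channel, was at 52.7, 51.8, 59.1 and 60.9 TPM in WT muscle and at 42.1 to 54.4 TPM in WT heart, so the tissues overlapped. Kcnj8, the other pore of that channel and a gene of vessel wall cells, had a different spread, with 11.6 ± 0.320 TPM in heart, 11.0 ± 0.344 in BAT, 7.60 ± 0.595 in muscle and 1.85 ± 0.474 in liver. The Kcnj11 to Kcnj8 ratio was 7.41 in muscle, 4.12 ± 0.442 in heart and 0.321 in BAT.

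The heart set held calcium and potassium channel genes of the cardiac action potential. Cacna1c, the cardiac L-type pore, was at 42.3, 51.1, 57.1 and 59.0 TPM in the WT heart libraries, with its beta subunit Cacnb2 at 18.9 ± 2.15. Cacna1g, a T-type calcium channel pore, was at 6.10 ± 0.440 TPM in heart. Its level was summed over 16 annotated transcripts, of which the one with the largest mean share in WT heart (27.1%) is annotated as a processed transcript.

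Potassium genes of heart were led by Kcnk3 and by partners of voltage-gated channels. Kcnk3, a two-pore background channel that is closed by acid, was at 63.8, 74.5, 62.9 and 74.4 TPM. Kcng2, a modifier subunit, was at 51.2, 64.0, 56.0 and 77.9 TPM. Kcnip2, the calcium-binding partner of the transient outward channel, was at 52.9, 52.9, 55.3 and 55.1 TPM, the narrowest spread of the 4 leading heart genes. Its pore Kcnd2 was much lower and varied more, at 2.38, 4.08, 6.31 and 6.75 TPM, and the other pore Kcnd3 averaged 3.67 TPM. Kcnh2, the rapid delayed rectifier, was at 29.8 ± 9.11 TPM, and Kcnq1, the slow one, at 11.4 ± 2.09 TPM beside its partner Kcne1 at 3.66 ± 0.634.

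Kcnj3 and Kcnj5 form the channel that acetylcholine opens in atrium and sinus node. In the 4 WT heart libraries Kcnj3 was at 21.3, 25.3, 17.3 and 30.1 TPM. Kcnj5 was at 19.1, 24.7, 17.4 and 24.3 TPM in the same order. The ratio was close to 1 in each genotype, at 1.09 ± 0.112 in WT and 1.09 ± 0.131 in Mut. Both were high or low in the same WT libraries, and so was Myl7, a myosin light chain of atrial muscle, at 371, 555, 96.8 and 626 TPM. Kcnk3 shared their lowest WT library, so that low value was seen beyond these genes. Of the pacemaker genes, Hcn2 (3.30 ± 0.307 TPM), Hcn4 (2.16 ± 0.295), Cacna1g and Cacna1h (3.12 ± 1.58) passed 1 TPM in WT heart.

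WT heart and WT muscle differed at nearly every channel gene tested. With limma over all 12174 genes at a mean of 1 TPM, 45 of 46 channel genes passed an adjusted p (Benjamini-Hochberg) of 0.05, against 72.7% of all genes, with 23 higher in heart (32.3% of all genes) and 22 lower (40.4%). The share among channel genes was above that of all genes, but a gene that is high in 1 tissue passes the level filter through that tissue, so the counts are a description. Groups did not overlap for 43 of the 46, against 66.6% of all genes. Kcnj11 passed with overlapping groups (-0.23, SE 0.09, adjusted p = 0.0402). Differences are given as log2(TPM + 1), which understates the change of low genes.

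**Figure D2:**
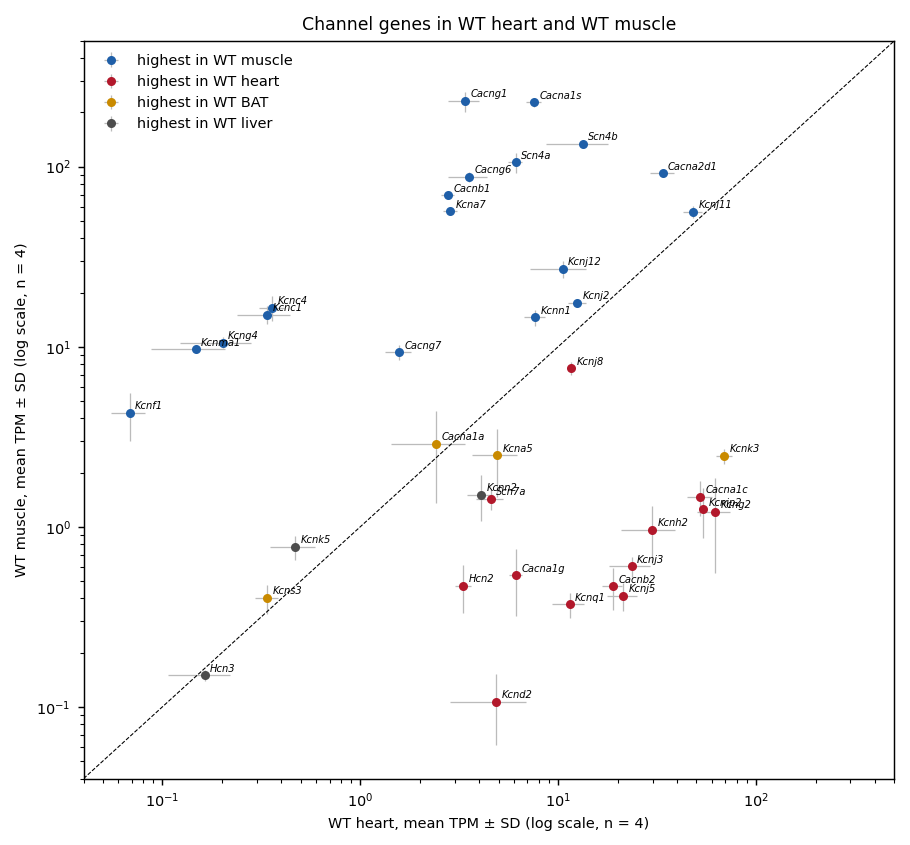
Mean TPM ± SD (n = 4) of 38 described channel genes in WT heart (x axis) and WT muscle (y axis), both log scales, coloured by the WT tissue of highest mean, with equal levels on the dashed line. Cacng1 and Kcnma1 lie far above the line and Kcng2 and Kcnip2 far below it, while Kcnj11 and Kcnj2 lie near it.

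Among those higher in heart were Kcng2 by 4.87 (SE 0.20, limma adjusted p = 2.94e-09), Kcnip2 by 4.63 (SE 0.11, 3.24e-11), Cacna1c by 4.43, Kcnk3 by 4.33, Kcnj5 by 3.97, Kcnh2 by 3.94, Kcnj3 by 3.91, Cacnb2 by 3.76 and Kcnq1 by 3.17 on the log2 scale. In plain TPM, Kcnj5 was 51.6-fold and Kcng2 51.5-fold higher. Among those lower in heart were Cacng1 at -5.73 (SE 0.11, adjusted p = 1.17e-11), Cacna1s at -4.75, Cacng6 at -4.30, Cacnb1 at -4.22, Scn4a and Kcna7 at -3.90, Kcnc4 at -3.68, Kcnc1 at -3.58 and Scn4b at -3.28. Cacng1 was 68.2-fold and Cacna1s 30.2-fold higher in muscle in plain TPM. Of 16 genes listed for the cardiac action potential, 11 were higher in heart and 5 higher in muscle, Scn4b, Cacna2d1, Kcnj2 and Kcnj12 among them. All 11 tested genes of the 12 listed for skeletal muscle excitation were higher in muscle. Over all genes tested, 32.3% were called higher in heart and 40.4% higher in muscle. Both lists name genes for their roles in these tissues and were chosen with earlier results of these data known. Their counts are therefore a description only. The gene that did not pass was Cacna1a (-0.13, SE 0.28, adjusted p = 0.693).

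Brown fat had a small set of its own. Kcnk3 was the leading channel gene, at 55.6 to 95 TPM in WT, a range that holds every WT heart library. Kcns3, a silent modifier subunit of voltage-gated potassium channels, was at 5.36 to 8.11 TPM in WT BAT and at 0.130 to 0.474 TPM in every other WT library, so that it was 17.0-fold above the second tissue. Cacna1a, the P/Q-type calcium channel pore known from nerve endings, was at 16.8, 10.2, 15.3 and 11.9 TPM in WT BAT against 2.89 ± 1.53 in muscle. Its level was summed over 11 annotated transcripts, of which the one with the largest share in BAT (32.4%) is annotated as a processed transcript without a coding frame. Kcna5 (5.67 ± 2.71 TPM) overlapped its level in heart (4.92 ± 1.25).

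Against WT liver, 20 of 24 tested channel genes passed in WT BAT (limma; 70.6% of all 12399 genes), 16 higher (32.8% of all genes) and 4 lower (37.8%), and 21 did not overlap (65.8%). Among those higher in BAT were Kcnk3 by 4.50 (SE 0.17, adjusted p = 2.14e-09), Kcns3 by 2.74, Cacna1a by 2.60, Kcna5 by 2.28, Kcnj8 by 2.09, Scn7a, an atypical sodium channel, by 1.80, Hcn2 by 1.34 and the mechanically gated Kcnk4 by 0.82. The genes that did not pass were Cacna1s, Cacng1, Cacng6 and Scn4a, all highest in muscle. These contrasts share WT libraries. WT heart and WT BAT differed at 33 of 41 channel genes (limma; 62.7% of all 12333 genes), 30 higher in heart (23.1%) and 3 higher in BAT (39.6%), and 33 did not overlap (57.6%). Among those higher in BAT were Kcns3 at -2.54 (SE 0.13, adjusted p = 2.44e-08) and Cacna1a at -2.10 for heart minus BAT. Kcnk3 did not pass there (-0.04, SE 0.17, adjusted p = 0.836). Heart exceeded BAT by large differences at Kcng2 (5.14), Kcnip2 (5.10), Cacna1c (4.69), Kcnj5 (4.21), Kcnj3 (4.20), Kcnh2 (4.13), Cacnb2 (3.57), Kcnj11 (3.44) and Kcnj2 (3.09).

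Liver had 3 prominent channel genes. Kcnk5, an alkaline-activated two-pore channel of epithelia, was at 17.0, 21.8, 30.5 and 37.6 TPM in WT liver, and at most 0.890 TPM in any WT library of the other tissues. Kcnn2, a small-conductance calcium-activated channel, was at 20.5, 19.1, 18.9 and 18.1 TPM in liver and at 4.07 TPM in heart. Hcn3 was at 7.99, 13.3, 7.68 and 7.12 TPM in liver and at most 0.295 TPM elsewhere in WT, so liver, not heart, carried the highest level of any Hcn gene. In the contrast of BAT with liver Kcnk5 was at -4.20 (SE 0.21, adjusted p = 1.83e-08), Kcnn2 at -3.98 and Hcn3 at -3.07. Kcnk10 (1.10 TPM in WT liver) and Cacna1d (1.47) were highest in liver at low level. Also among the 10 highest in liver were Cacng1 (3.51 TPM), Kcnn1 (2.97), Cacna1s (2.96), Cacna2d1 (2.19) and Kcnk3 (2.18), each higher in another tissue.

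Some channel genes were as low outside their own tissue as the marker genes, whose range ended at 2.04% of the own-tissue level. Of the 20 genes highest in muscle, 12 were within that range in WT liver, 8 in BAT and 4 in heart. Of the 14 heart genes, 9 were within it in liver, 6 in BAT and 2 in muscle. Of the 4 liver genes, 3 were within it in BAT, 2 in heart and 1 in muscle, and of the 5 BAT genes 0 were within it elsewhere. Cacng1 stood at 1.49% in BAT, 1.47% in heart and 1.52% in liver, although its own level was 231 TPM, so that 3.39 to 3.51 TPM in those tissues stood beside 1.54% to 1.73% for Acta1. Hcn3 stood at 1.66% to 1.84% outside liver, and Kcnma1 at 1.39% to 1.61% outside muscle. Above that range in heart lay Scn4b (9.97%), Scn4a (5.78%), Kcna7 (5.05%), Cacng6 (4.07%), Cacnb1 (4.00%) and Cacna1s (3.31%).

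**Figure D3:**
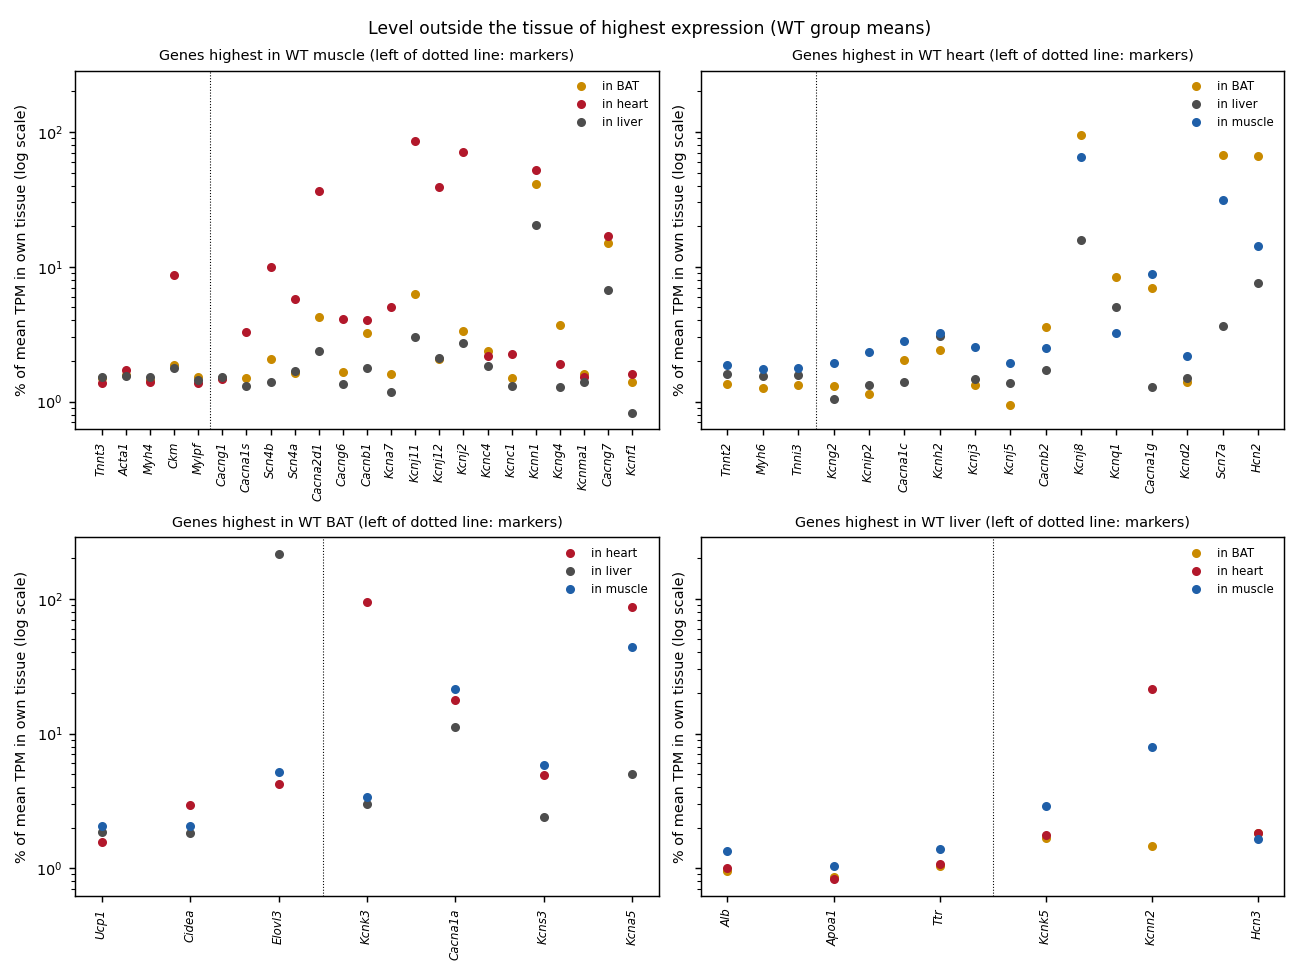
Mean level in each other tissue as a percentage of the mean in the own tissue (WT, log scale), for marker genes (left of the dotted line) and described channel genes (right), in a panel per own tissue. Most markers lie between 0.835% and 2.04%, Cacng1, Kcnma1 and Hcn3 lie in the same band, and Kcnj11, Kcnj8 and Kcnk3 lie near 100% in a second tissue.

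Some close neighbours in the genome differed in level. The pairs given here were picked after their values were seen, and others, such as Scn3a and Scn2a with highest group means of 0.238 and 0.180 TPM, were low in both. Cacng7, Cacng8 and Cacng6 lie in a row on chromosome 7 (3332955 to 3435667, GENCODE M21), with group means of up to 10.5 TPM for Cacng7, 0.037 for Cacng8 and 98 for Cacng6. Scn2b and Scn4b on chromosome 9 lie 8325 bases apart, with highest group means of 0.367 and 133 TPM. On chromosome 11 Cacng1 (107703218 to 107716522) reached 268 TPM and its neighbour Cacng4 reached 0.638.

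Transcript use was compared in 2 pairs of tissues. In the 4 WT libraries of each tissue, of 11 genes at 5 TPM or more in both WT heart and WT muscle, and 5 in both BAT and heart, 0 had a leading transcript that differed between the tissues in all 4 libraries. A share did differ: the leading Cacna1s transcript made up 88.8% of the gene in WT muscle and 61.3% in WT heart. Outside that rule, and chosen after its values were seen, Kcnn2 averaged 4.07 TPM in WT heart and 19.1 in WT liver and led with different transcripts there, at 60.9% and 55.2% of the gene, each in 4 of 4 libraries. The quantifier divides reads among transcripts that share exons, so such shares carry no test here.

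Genotype was compared next, in each tissue on its own, and no channel gene passed. The counts called by limma were 0 of 27 channel genes tested in BAT (0% of all 12150 genes), 0 of 42 for the heart (0.15% of 12019), 0 of 19 for the liver (4.16% of 11994) and 0 of 32 for the muscle (0.0085% of 11771). At an unadjusted p under 0.05 there were 5 in BAT (19.5% of all genes), 7 in heart (11.6%), 3 in liver (25.9%) and 3 in muscle (7.76%), a share above that of all genes in heart and muscle and below it in BAT and liver. The groups did not overlap for 2, 1, 1 and 1 channel genes, against 9.41%, 7.53%, 16.4% and 4.49% of all genes. A p above the threshold does not show that levels were equal.

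**Figure D4:**
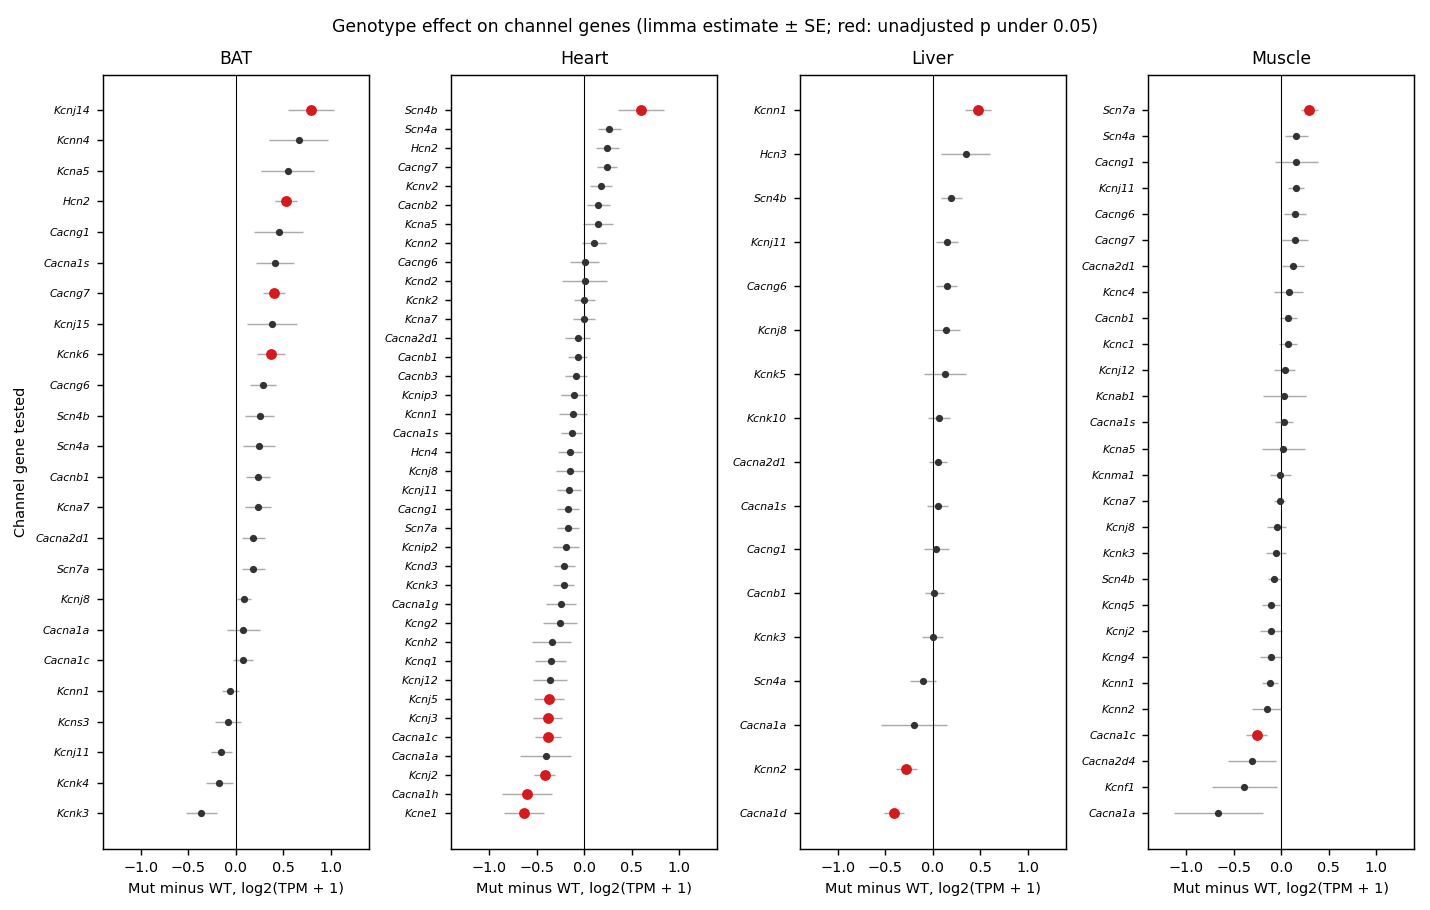
Mut minus WT difference in log2(TPM + 1) with its SE (limma, 4 libraries per group) for channel genes tested in BAT, heart, liver and muscle, ordered by size, with an unadjusted p under 0.05 in red. Differences run from -0.63 (Kcne1) to 0.60 (Scn4b) in heart, and none passes an adjusted p of 0.05 in any tissue.

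In heart, the 7 genes at an unadjusted p under 0.05 were Kcnj2, Kcne1, Cacna1c, Kcnj3, Scn4b, Kcnj5 and Cacna1h. Kcnj2, which holds the resting voltage, was at 10.9, 12.6, 12.3 and 14.1 TPM in WT and 8.60, 8.23, 10.5 and 9.08 in Mut, with no overlap (-0.42, SE 0.11, limma adjusted p = 0.345). Cacna1c was at 42.3 to 59.0 TPM in WT and 32.0 to 44.3 in Mut (-0.39, SE 0.14, adjusted p = 0.397). Kcne1 went from 3.66 ± 0.634 to 2.12 ± 1.03 TPM (-0.63, SE 0.21, adjusted p = 0.395), Kcnj3 from 23.5 ± 5.51 to 17.5 ± 1.90 (-0.38, adjusted p = 0.410), and Kcnj5 stood at -0.37 and Cacna1h at -0.61. Scn4b lay the other way, at 9.45 to 19.9 TPM in WT and 15.4 to 31.1 in Mut (0.60, SE 0.24, adjusted p = 0.413). None of these differences passed the test.

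Directions in heart were read against all genes, whose median difference was -0.11, with 80.7% of them below 0. Of the 42 channel genes, 29 were below 0, with a median of -0.14. All 6 tested inward rectifiers and all 5 tested Cacna1 pores were below 0. Some families lay the other way: above 0 were 2 of 3 sodium alpha, 2 of 2 sodium beta and 2 of 3 calcium gamma genes. With median-ratio scaling, which moved the all-gene median to near 0, 26 of 42 were below 0, and with the mitochondrial genes and the 10 most abundant genes taken out of the total, 24 of 53 were below 0 and the median turned to 0.0063. Under those scalings the inward rectifiers were 6 of 6 and 5 of 7 below 0, and the Cacna1 pores 5 of 5 and 4 of 5. The share of all genes below 0 under each scaling is not given here, and the second scaling tests more channel genes. Of the 16 cardiac action potential genes, 10 were below 0 and 6 above.

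Beside these heart values stands a difference in atrial transcripts. The 6 listed atrial genes (Myl7, Myl4, Sln, Nppa, Mybphl and Bmp10) summed to 330 to 3420 TPM in the WT heart libraries and 22.7 to 89.3 in the Mut libraries, with 6 of 6 lower and none at 0. Nppa was at 763, 1288, 143 and 2049 TPM in WT and at 14.6 to 68.0 in Mut. Kcnj3 and Kcnj5 are known from atrium, and in WT their lowest and highest or near-highest values lay in the libraries with the lowest and highest Myl7. Kcnk3 was also lowest and near its highest in these WT libraries, so this order was seen beyond the pair. Whether Kcnk3 itself varies with atrial content was not tested. The 4 ventricular markers summed to 10243 to 11794 TPM in WT heart and 6440 to 10895 in Mut. The 4 general cardiomyocyte markers summed to 20624 to 22756 TPM in WT heart and 14181 to 21048 in Mut. In each of these lists 4 of 4 were lower in mean, beside 80.7% of all genes below 0, and the sums overlapped. Haemoglobin and other red blood cell transcripts summed to 3088 to 6408 TPM in WT heart and 3248 to 26213 in Mut, ranges that overlap. Schwann and nerve markers summed to 6.34 to 8.09 TPM in WT heart and 3.65 to 6.32 in Mut, which did not overlap, with 5 of 8 lower, Snap25 at 0 in WT and Th at 0 in Mut. The part of any of these in the channel gene differences was not tested.

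Ratios between channel partners do not depend on the scaling of a library. Of 18 ratios chosen with the levels known, 3 in heart did not overlap between genotypes. Of these 3, 2 share Cacna1c and so are not separate observations. No share over other gene pairs was taken to set beside this count. One ratio could be formed in all 8 libraries of heart alone, and of the other 17 the number not overlapping was 0 in muscle, 2 in BAT and 1 in liver. Those in BAT and liver each hold a gene under 1 TPM (Cacnb2 or Kcnc1). In heart Cacna1c stood at 2.47 to 3.26 times Cacnb2 in WT and 1.68 to 2.34 times in Mut. Cacna2d1 stood at 0.624 to 0.659 times Cacna1c in WT and 0.670 to 1.04 in Mut. The ratio of Abcc9, the sulfonylurea receptor that joins the ATP-sensitive channel, to Kcnj11 was 0.703 ± 0.047 in WT and 0.904 ± 0.061 in Mut. The ratio of Kcnj3 to Kcnj5 overlapped. No test was made of ratios.

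**Figure D5:**
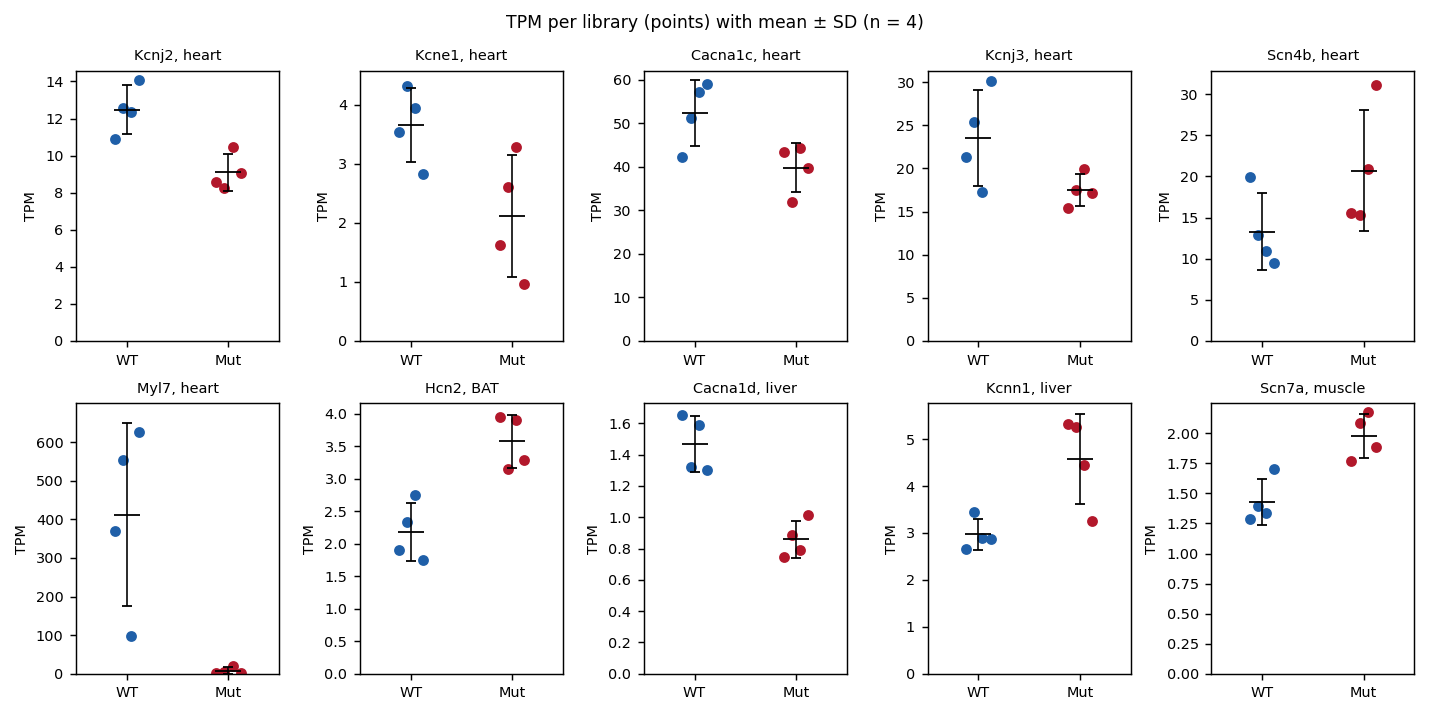
TPM in each library (points) with mean ± SD (n = 4) for Kcnj2, Kcne1, Cacna1c, Kcnj3, Scn4b and the atrial marker Myl7 in heart, Hcn2 in BAT, Cacna1d and Kcnn1 in liver and Scn7a in muscle, WT in blue and Mut in red, each axis starting at 0. Kcnj2, Hcn2, Cacna1d and Scn7a do not overlap between genotypes, and Myl7 is at 96.8 TPM or more in WT and at most 20.6 in Mut.

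In BAT, Hcn2 came nearest the threshold. It was at 1.90, 2.33, 2.75 and 1.76 TPM in WT and 3.95, 3.16, 3.90 and 3.30 in Mut, every Mut library above every WT library (0.53, SE 0.12, limma adjusted p = 0.121). Then came, among others, Cacng7 (0.40, adjusted p = 0.151), Kcnj14, an inward rectifier, at 0.79 (0.154) and the two-pore gene Kcnk6 at 0.37 (0.220). Kcnk3, the leading gene, was at 55.6 to 95 TPM in WT and 52.1 to 56.9 in Mut (-0.36, SE 0.16, adjusted p = 0.261), and the wide WT spread came from replicates 1 and 2. Of 27 tested, 21 were above 0 (median 0.24), against 72.7% of all genes (median 0.09).

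Cacna1s and Cacng1, genes highest in muscle, are given in BAT beside the muscle markers. Neither passed the test there, and both overlapped between genotypes. Cacna1s was at 6.12, 6.68, 4.65 and 2.77 TPM in the Mut BAT libraries against 2.98 to 3.76 in WT, and Cacng1 at 4.14, 9.50, 5.52 and 2.84 against 3.00 to 3.97. Kcnj11, also highest in muscle, lay the other way and averaged 3.52 TPM in WT BAT and 3.05 in Mut. Of the 8 tested genes listed for skeletal muscle excitation, 7 were above 0 in BAT and only Kcnj11 was below. Of all genes 72.7% were above 0. The 4 skeletal muscle markers summed to 614 to 675 TPM in WT BAT and 560 to 1425 in Mut, all 4 higher in mean. The Mut library that was low for Cacna1s and Cacng1, replicate 4, was also the lowest for Acta1 at 253 TPM, where the others were at 425 to 604. Smooth muscle and pericyte markers (156 to 192 and 195 to 239 TPM, 5 of 6 higher), fibroblast markers (130 to 223 and 276 to 466, 4 of 4 higher), B cell markers (0.507 to 0.793 and 0.879 to 2.19, 4 of 4 higher) and red blood cell markers (2096 to 3864 and 4081 to 6220, 5 of 5 higher) did not overlap between WT and Mut BAT. Their part in the BAT values was not tested.

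In liver, Cacna1d, an L-type pore, was at 1.30 to 1.65 TPM in WT and 0.748 to 1.01 in Mut, with no overlap (-0.41, SE 0.11, limma adjusted p = 0.061). Kcnn1 was at 2.66, 3.45, 2.89 and 2.88 TPM in WT and 5.32, 5.25, 4.45 and 3.27 in Mut (0.48, SE 0.14, adjusted p = 0.075). Kcnn2, the more abundant member of the same family, stood at -0.28 (19.1 ± 0.978 and 15.7 ± 2.53 TPM, adjusted p = 0.155), Scn4b at 0.20 and Hcn3 at 0.35. Of 19 tested, 14 were above 0 (69% of all genes). Kcnk5 stood at 26.7 ± 9.17 and 28.3 ± 4.63 TPM. Smooth muscle and pericyte markers did not overlap in liver, with 5 of 6 higher in Mut, and their part in these values was not tested.

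In skeletal muscle, the leading genes overlapped between genotypes. Cacna1s was at 228 ± 12.5 TPM in WT and 233 ± 27.9 in Mut. Cacng1 varied more among the Mut libraries, at 160, 349, 336 and 229 TPM. Scn7a, at 1.28 to 1.71 TPM in WT and 1.77 to 2.17 in Mut, had no overlap (0.29, SE 0.09, limma adjusted p = 0.509), and macrophage and fibroblast markers, 4 of 4 higher each, also did not overlap there, a link that was not tested. Cacna1c (-0.26, adjusted p = 0.637), Kcnj11 (0.15, 0.691) and Cacna1a (-0.67, 0.749) were among the next smallest p. Of 32 tested, 17 were above 0 (67% of all genes).

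Whether the genotype difference itself varied between tissues was tested for 13 channel genes at 1 TPM or more in every tissue. Some of them, such as Cacna1s (1.30% of the WT muscle level) and Cacng1 (1.52%), stood in WT liver within the low range of the marker genes. By limma's F test of the interaction over 32 libraries 0 of the 13 passed, against 5.87% of 10109 genes, and at an unadjusted p under 0.05 there was 1, Kcnn1, against 28% of all genes. Its estimates, Mut minus WT, were 0.48 in liver, -0.06 in BAT and -0.12 in heart and in muscle (adjusted p = 0.063). Kcnj11 (0.199), Cacna1s (0.208), Scn4b (0.222) and Cacnb1 (0.327) followed by adjusted p.

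Genes that work with these channels were counted from a list of 40 partners, such as ryanodine receptors, calcium pumps and ankyrins. In heart 1 of 36 tested passed, beside 0.15% of all genes: Fgf12, a cytosolic partner of sodium channels, was at 7.34 ± 4.05 TPM in WT and 0.183 ± 0.104 in Mut (-2.62, SE 0.37, limma adjusted p = 0.022). In liver 1 of 27 passed, higher in Mut, beside 4.16% of all genes. In BAT 0 of 32 (0% of all genes) and in muscle 0 of 31 (0.0085% of all genes) passed. The same Mut heart libraries had the low atrial markers given above, and their part in the Fgf12 value was not tested. Between WT heart and WT muscle 16 of 36 partners were higher in heart and 16 lower, beside 32.3% and 40.4% of all genes tested.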

How the data were processed

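RNA from 32 libraries (BAT, heart, liver and muscle of WT and Mut mice) was extracted with a bead kit and sequenced strand-specifically, per the labels' protocols. Groups and replicate numbers came from the sample titles, and each group's replicates are separate mice. The authors deposited TPM per transcript, with the same total in each library, made with Salmon per the submitters' processing notes, with version, genome build and annotation not given in the sources used here. TPM keeps no depth, so no counting interval is given. No deposited column was left unused.

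Transcripts were matched by identifier to GENCODE M21 (136081 of 147493, 92.26%, with 0.451% to 0.896% of a library's TPM unmatched) and summed per gene. Genes at a mean of 1 TPM over the libraries compared were tested on log2(TPM + 1) with limma 3.58.1 (mean-variance trend, R 4.3.3), two-sided, with Benjamini-Hochberg adjustment over all of them and a threshold of 0.05, each tissue or tissue pair alone, and the interaction in 1 model of 8 groups. The code was checked on simulated data. Named genes were the 10 highest per tissue, the 5 of smallest p per genotype comparison and the interaction, up to 10 per direction in each tissue comparison (passing and not overlapping), the listed role genes, and the 3 genes on each side of the 1 TPM mean. A few further genes were added after their values were seen: Kcnk3 (genotype in BAT), Kcnk5 (genotype in liver), and the neighbour and ratio genes. The members and lists were chosen with earlier results of these data known. Alternatives were another pseudocount (0.1 TPM) and filters, 2 scalings, no trend, library weights, a replicate block and each library left out. RefSeq promoters (GRCm38.p6) covered 29 of 43 described genes. Same-numbered libraries were not treated as pairs, since nothing in the labels pairs them. Their deviations correlated at -0.252 to 0.121 between genotypes of a tissue and at -0.039 to 0.149 between WT tissues. These values do not settle whether tissues of a mouse share a number, and all tests took libraries as independent. Gene 2610001J05Rik was taken as Smim30. A few genes that enter the counts and sums are not reported or drawn by name here.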

Additional observations from a re-analysis of the deposited data

Results flagged for a closer look

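A value far from the other 3 libraries of its group was found in 2 of 40 groups checked with Dixon's test at the 5% level, which chance flags in about 1 of 20 groups. Cacng7 was at 1.61 TPM in Mut BAT replicate 3, where the other Mut BAT libraries were at 2.32 to 2.45. Hcn3 was at 13.3 TPM in WT liver replicate 2, where the other WT liver libraries were at 7.12 to 7.99.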

How the results depend on the processing

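Counts of channel genes called were recomputed under each alternative. In heart and muscle 0 channel genes passed for genotype under each one. In BAT 1 passed with array weights (Hcn2), and 0 to 2 with a library left out, 2 only without WT replicate 3. In liver 1 passed without the trend (Cacna1d), 1 with array weights (Kcnn1), and 0 to 1 with a library left out, 1 only without Mut replicate 4 (Kcnn1). The interaction gave 3 with no filter on low values, 3 with array weights, and 0 to 1 with a library left out (1 without Mut BAT replicate 4, Mut heart replicate 1 or Mut liver replicate 4, an alternative added after the data were seen). For tissues, no filter gave 71 for heart and muscle, 55 for BAT and liver and 58 for heart and BAT, a filter at 5 TPM gave 6 for BAT and liver and 18 for heart and BAT, and taking mitochondrial genes and the 10 most abundant genes out of the total gave 35 for BAT and liver; these change how many channel genes are tested. With a library left out the tissue counts were 44 to 46, 18 to 20 and 31 to 34. In the Mut libraries the same contrasts gave 44, 23 and 32. Of the 5 genes of smallest p per genotype comparison and the called genes named in the tissue comparisons, 0 reversed direction under these alternatives. Outside these, Cacna2d1 in heart, not called for genotype, went from -0.07 to 0.06 with median-ratio scaling. With the replicate number as a block, 0 channel genes passed for genotype in any tissue or for the interaction, and 45, 20 and 33 in the tissue contrasts. Reading the 1 TPM limit as any group gave 63 described genes. With 4 libraries per group and no depth in TPM, genes near 1 TPM carry the least precision.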
